A study of Saccharomyces cerevisiae with 10 samples.

Results

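The COQ genes of Saccharomyces cerevisiae encode the mitochondrial proteins that build ubiquinone. The 10 genes COQ1 to COQ10 were taken by gene symbol, and each was measured by 1 probe set of an Affymetrix yeast expression array. COQ7 is listed as CAT5, another name of the gene, on the array and in the gene annotation used. They are 10 of 5449 S. cerevisiae genes tested. Total RNA came from 10 cultures of haploid strains in the genetic background labelled Sce3044, with 2 biological replicates of each of 5 genotypes. The first genotype, MKT1e, carried an evolved allele of MKT1, and the second, MDS3e, an evolved allele of MDS3. MDS3e MKT1e carried both of these alleles, and PMA1e MKT1e carried evolved alleles of PMA1 and MKT1. Ancestral, the progenitor, carried no evolved allele. All strains were free of other evolved alleles. An overnight culture in rich medium was used to start a low glucose culture (0.25% dextrose, defined medium, added uracil), which was sampled at an optical density of about 0.2 after about 17 hours. The labels do not say whether a genotype was represented by 1 clone or several, or whether replicate cultures came from 1 strain isolate, so the p-values below measure the spread between cultures. PMA1e without MKT1e was not analysed here.

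Ubiquinone, also called coenzyme Q, is a lipid of the inner mitochondrial membrane that carries electrons from dehydrogenases to respiratory complex III. Its isoprenoid tail is made by Coq1 from products of the mevalonate pathway and is joined to an aromatic ring by Coq2. Enzymes held in a complex on the matrix side of the membrane then add hydroxyl, methoxy and methyl groups to the ring. Yeast can grow by fermenting glucose without ubiquinone but cannot respire without it.

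Levels are given as log2 of the deposited intensity plus 16, so a difference of 1 is close to a doubling for bright genes and understates the change of dim ones. All 10 COQ genes lay above the background limit of 4.15 on all 10 arrays, with levels between 6.80 and 10.07. The limit is the 95th percentile of 1746 probe sets for another yeast species on the same array. Because a level is a share of the RNA hybridised, a change in mRNA per cell and a change in the mixture of cells in a culture cannot be told apart. Array medians over all genes lay within 0.105 of each other, and arrays of the same genotype correlated across genes at r of 0.996 to 0.998 (genes are not independent replicates). The a-cell genes MFA1, MFA2, STE2, STE6, BAR1 and AGA2 lay between 8.75 and 10.92 on all arrays, and of the alpha-cell genes MF(ALPHA)1 lay between 4.02 and 4.47 and MF(ALPHA)2 between 4.25 and 4.50, near background. STE3, at 5.29 to 5.58, and SAG1, at 6.43 to 6.71, which are also alpha-cell genes, lay above the background limit on all arrays. The labels give no mating type.

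**Figure D1:**
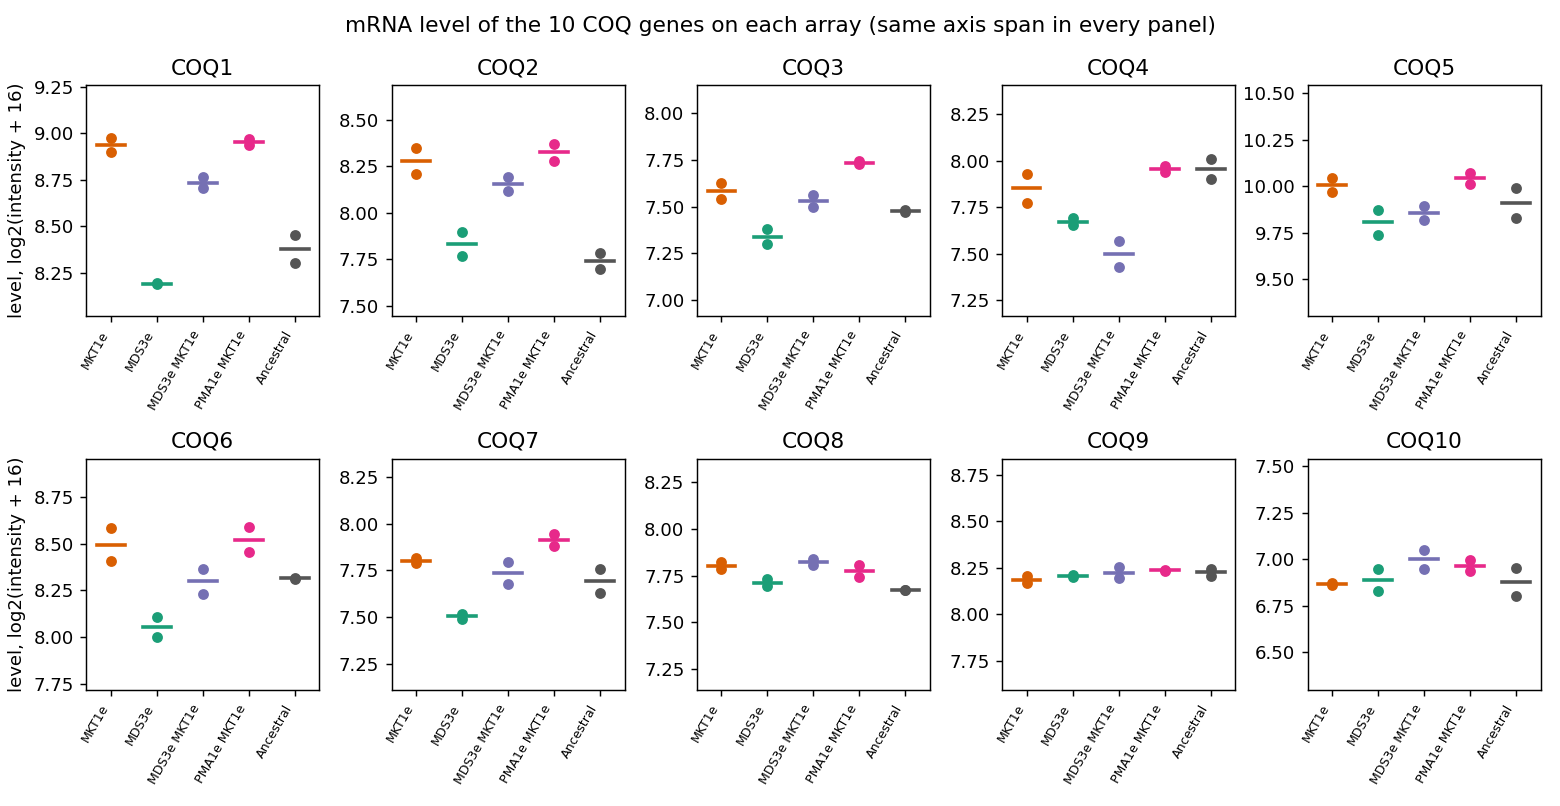
Level of each COQ gene (y axis, log2 of intensity plus 16) on each array, by genotype (x axis). Points are single arrays and bars are the mean of the 2 arrays of a genotype, and all 10 panels span the same number of log2 units. COQ1 and COQ2 stand higher in the 3 genotypes with the evolved MKT1 allele than in MDS3e and Ancestral, and COQ9 hardly varies.

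Differences between genotypes were tested with limma, and a gene was called at a Benjamini-Hochberg adjusted p under 0.05 over all 5449 genes. The 4 comparisons with Ancestral share the same 2 Ancestral arrays. An F-test over the 5 genotypes called 6 of the 10 COQ genes, namely COQ1, COQ2, COQ3, COQ4, COQ6 and COQ7, at adjusted p between 1.2e-05 and 0.0034, where 55% of all genes were called. COQ5, COQ8, COQ9 and COQ10 were not called (adjusted p 0.063, 0.10, 0.89 and 0.33). Genotype means spanned 0.76 for COQ1, 0.58 for COQ2, 0.47 for COQ6, 0.46 for COQ4, 0.41 for COQ7 and 0.40 for COQ3. The remaining members spanned 0.24 for COQ5, 0.15 for COQ8, 0.13 for COQ10 and 0.05 for COQ9.

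COQ1 (YBR003W), which makes the polyprenyl tail, had the widest range of the members. Its log2 levels were 8.90 and 8.97 in MKT1e, 8.19 and 8.19 in MDS3e, 8.76 and 8.71 in MDS3e MKT1e, 8.94 and 8.97 in PMA1e MKT1e, and 8.30 and 8.46 in Ancestral. All 6 arrays of the genotypes with the evolved MKT1 allele were above all 4 arrays without it. The share of all genes whose arrays separate by genotype was not counted, for COQ1 or for the genes below. COQ1 rose by 0.55 ± 0.06 (SE) in MKT1e against Ancestral, a 1.47-fold increase (limma, adjusted p = 0.00013). In PMA1e MKT1e it rose by 0.57 ± 0.06 against Ancestral (limma, adjusted p = 0.00010). The increase was 0.35 ± 0.06 in MDS3e MKT1e against Ancestral (limma, adjusted p = 0.0015) and 0.54 ± 0.06 against MDS3e (limma, adjusted p = 0.00019). These 4 calls held under every alternative tried.

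In MDS3e alone, COQ1 was 0.19 ± 0.06 lower than in Ancestral, which just passed the threshold (limma, adjusted p = 0.0498). Omission of any array except Ancestral 1 ended this COQ1 call: the difference was -0.11 without Ancestral 2 (adjusted p = 0.26), and the adjusted p was 0.17 without MDS3e 1, 0.16 without MDS3e 2, and between 0.058 and 0.073 without an array of MKT1e, MDS3e MKT1e or PMA1e MKT1e. The genotypes ranked PMA1e MKT1e, MKT1e, MDS3e MKT1e, Ancestral and MDS3e from high to low for COQ1. The top pair did not differ beyond its spread (adjusted p = 0.96), and each later step passed, MKT1e over MDS3e MKT1e at adjusted p = 0.038.

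COQ2 (YNR041C) encodes the prenyltransferase that joins the tail to para-hydroxybenzoate. Its levels were 8.21 and 8.35 in MKT1e, 7.77 and 7.90 in MDS3e, 8.19 and 8.12 in MDS3e MKT1e, 8.37 and 8.28 in PMA1e MKT1e, and 7.70 and 7.78 in Ancestral. As for COQ1, the 6 arrays with the evolved MKT1 allele did not overlap with the 4 arrays without it. COQ2 rose by 0.54 ± 0.07 in MKT1e against Ancestral, a 1.45-fold increase (limma, adjusted p = 0.00039). It rose by 0.41 ± 0.07 in MDS3e MKT1e (limma, adjusted p = 0.0014) and by 0.58 ± 0.07 in PMA1e MKT1e (limma, adjusted p = 0.00021) against Ancestral. All 3 of these calls held under every alternative. Unlike COQ1, COQ2 was not called in MDS3e against Ancestral, where it differed by 0.09 with a 95% interval of -0.07 to 0.25.

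Against MDS3e, COQ2 was 0.32 ± 0.07 higher in MDS3e MKT1e (limma, adjusted p = 0.011). Without MDS3e 1 this COQ2 difference was 0.26 (adjusted p = 0.099), and without MDS3e MKT1e 1 it was 0.29 (adjusted p = 0.081). In the order of COQ2 levels only the step between MDS3e MKT1e and MDS3e passed. The gap between MDS3e and Ancestral, at the bottom of that order, was within its spread (adjusted p = 0.38).

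COQ3 (YOL096C), the O-methyltransferase of the pathway, had levels of 7.54 and 7.63 in MKT1e, 7.38 and 7.30 in MDS3e, 7.56 and 7.50 in MDS3e MKT1e, 7.73 and 7.74 in PMA1e MKT1e, and 7.47 and 7.48 in Ancestral. Both PMA1e MKT1e arrays were the highest and both MDS3e arrays the lowest. COQ3 rose by 0.26 ± 0.06 in PMA1e MKT1e against Ancestral (limma, adjusted p = 0.0080), and without PMA1e MKT1e 2 the COQ3 difference was 0.25 (adjusted p = 0.061). In MKT1e it differed from Ancestral by 0.11, with an interval of -0.02 to 0.23 (limma, adjusted p = 0.21). COQ5 (YML110C), the C-methyltransferase, had levels of 9.97 and 10.05 in MKT1e, 9.74 and 9.87 in MDS3e, 9.89 and 9.82 in MDS3e MKT1e, 10.07 and 10.01 in PMA1e MKT1e, and 9.83 and 9.99 in Ancestral. The Ancestral arrays of COQ5 overlapped with those of MDS3e, MDS3e MKT1e and MKT1e, and COQ5 was called in none of the 8 comparisons between genotypes.

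COQ6 (YGR255C), a flavin-dependent monooxygenase that hydroxylates the ring, had levels of 8.58 and 8.41 in MKT1e, 8.11 and 8.00 in MDS3e, 8.23 and 8.37 in MDS3e MKT1e, 8.59 and 8.45 in PMA1e MKT1e, and 8.32 and 8.31 in Ancestral. The MDS3e arrays were below all others. COQ6 fell by 0.26 ± 0.08 in MDS3e against Ancestral (limma, adjusted p = 0.035). The COQ6 call was lost when any of the 4 arrays compared was omitted, with differences of -0.26 without Ancestral 1 (adjusted p = 0.078), -0.26 without Ancestral 2 (adjusted p = 0.10), -0.32 without MDS3e 1 (adjusted p = 0.070) and -0.21 without MDS3e 2 (adjusted p = 0.19). In MKT1e and PMA1e MKT1e, COQ6 was 0.18 and 0.21 above Ancestral, and neither difference was called (limma, adjusted p 0.13 and 0.086).

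COQ7 (YOR125C), the hydroxylase of a late step, had levels of 7.79 and 7.82 in MKT1e, 7.52 and 7.49 in MDS3e, 7.79 and 7.68 in MDS3e MKT1e, 7.88 and 7.95 in PMA1e MKT1e, and 7.63 and 7.76 in Ancestral. Its highest arrays were those of PMA1e MKT1e and its lowest those of MDS3e, as for COQ3. COQ7 rose by 0.22 ± 0.06 in PMA1e MKT1e against Ancestral (limma, adjusted p = 0.031). The COQ7 difference was 0.26 without PMA1e MKT1e 1 (adjusted p = 0.071), 0.19 without PMA1e MKT1e 2 (adjusted p = 0.18) and 0.16 without Ancestral 1 (adjusted p = 0.16), and after median centring of the arrays it was 0.17 (adjusted p = 0.11), so the call was lost each time. In MDS3e it was 0.19 below Ancestral and just missed the threshold (limma, adjusted p = 0.052).

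COQ4 (YDR204W) encodes a protein needed for the synthesis complex to form. Its levels were 7.77 and 7.93 in MKT1e, 7.65 and 7.69 in MDS3e, 7.43 and 7.57 in MDS3e MKT1e, 7.94 and 7.97 in PMA1e MKT1e, and 7.90 and 8.01 in Ancestral. The 4 arrays with the evolved MDS3 allele were below all 6 arrays without it, and the share of all genes that separate in this way was not counted. COQ4 fell by 0.46 ± 0.07 in MDS3e MKT1e against Ancestral, a 1.37-fold decrease (limma, adjusted p = 0.00078), a call kept in every alternative. Against PMA1e MKT1e, the COQ4 level was again lower in MDS3e MKT1e: the difference of PMA1e MKT1e over MDS3e MKT1e was 0.45 ± 0.07 (limma, adjusted p = 0.0014), also kept throughout.

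COQ4 was 0.35 ± 0.07 lower in MDS3e MKT1e than in MKT1e (limma, adjusted p = 0.0064), and without MKT1e 2 the COQ4 difference was -0.28 (adjusted p = 0.063). In MDS3e alone COQ4 fell by 0.28 ± 0.07 against Ancestral (limma, adjusted p = 0.018). That COQ4 difference was -0.23 without Ancestral 2 (adjusted p = 0.099), -0.26 without MDS3e 1 (adjusted p = 0.10) and -0.30 without MDS3e 2 (adjusted p = 0.065), none of which was called. PMA1e MKT1e and Ancestral had nearly the same COQ4 mean, with a difference of -0.00 and an interval of -0.16 to 0.16. No step between neighbouring genotypes in the order of COQ4 levels passed the test.

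COQ8 (YGL119W), an atypical kinase-like protein of the synthesis complex, had levels of 7.82 and 7.79 in MKT1e, 7.73 and 7.69 in MDS3e, 7.84 and 7.81 in MDS3e MKT1e, 7.74 and 7.81 in PMA1e MKT1e, and 7.67 and 7.67 in Ancestral. Ancestral was lowest on both arrays. COQ8 rose by 0.15 ± 0.05 in MDS3e MKT1e against Ancestral (limma, adjusted p = 0.040). This COQ8 call was lost on omission of any of the 10 arrays (adjusted p between 0.051 and 0.15), and median centring brought the difference to 0.07 (adjusted p = 0.35).

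COQ9 (YLR201C) encodes the lipid-binding partner of Coq7, and it was the flattest member. COQ9 had levels of 8.17 and 8.21 in MKT1e, 8.20 and 8.21 in MDS3e, 8.25 and 8.19 in MDS3e MKT1e, 8.23 and 8.24 in PMA1e MKT1e, and 8.21 and 8.25 in Ancestral. All arrays lay in a narrow band. In MKT1e the COQ9 difference from Ancestral was -0.04, with an interval of -0.15 to 0.07. COQ10 (YOL008W), whose protein binds ubiquinone and is needed for its use in respiration, had levels of 6.86 and 6.87 in MKT1e, 6.94 and 6.83 in MDS3e, 6.95 and 7.05 in MDS3e MKT1e, 7.00 and 6.93 in PMA1e MKT1e, and 6.80 and 6.95 in Ancestral. The Ancestral and the MDS3e arrays of COQ10 each spanned those of MKT1e, and no comparison called the gene. The interval of its MKT1e difference from Ancestral was -0.16 to 0.14.

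Counted by comparison, MKT1e had 2 COQ genes higher than Ancestral (COQ1 and COQ2), none lower and 8 not called. Among all genes 11.8% were called higher and 8.48% lower. The median difference of the 10 members was 0.11, against -0.01 over all genes. In MDS3e against Ancestral none was higher and 3 were lower (COQ1, COQ4 and COQ6), with 14.5% of all genes higher and 10.7% lower. The members' median was -0.12 and that of all genes 0.03. None of the 3 members was called without MDS3e 1, without MDS3e 2 or without Ancestral 2, and 5 were called lower after median centring, which added COQ3 and COQ7.

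MDS3e MKT1e had COQ1, COQ2 and COQ8 higher than Ancestral and COQ4 lower, with 21.9% of all genes higher and 16.7% lower. Here the members' median was 0.05 and that of all genes 0.03. Median centring of the arrays shifted every difference by -0.08, which brought the members' median to -0.03. PMA1e MKT1e had COQ1, COQ2, COQ3 and COQ7 higher than Ancestral and none lower, with 14.3% of all genes higher and 7.32% lower. Its members' median was 0.17, against 0.01 over all genes, and median centring of the arrays shifted every difference in this comparison by -0.06. The count of 4 was 2 without PMA1e MKT1e 2.

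**Figure D2:**
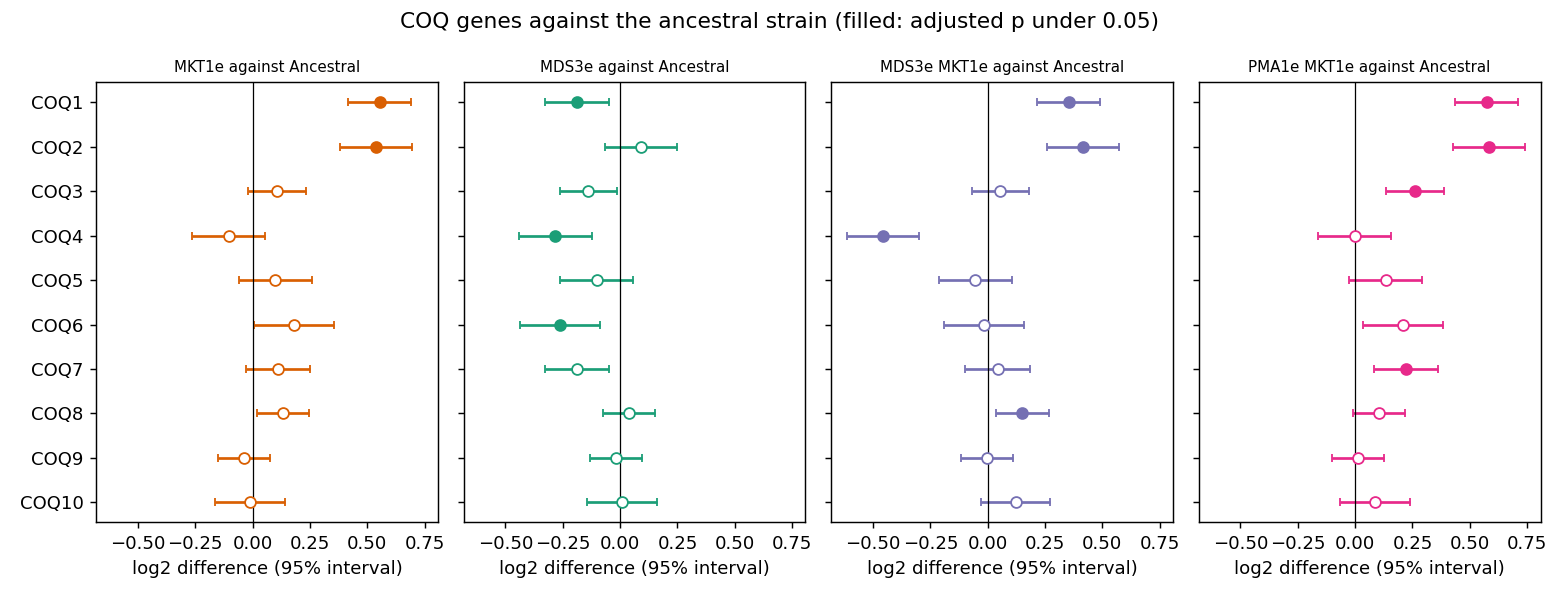
Log2 difference from Ancestral (x axis) of each COQ gene (rows) in MKT1e, MDS3e, MDS3e MKT1e and PMA1e MKT1e, 1 panel per genotype, with 95% intervals from limma. Filled points were called at adjusted p under 0.05. COQ1 and COQ2 are called higher in the 3 panels with the evolved MKT1 allele, and COQ4 is called lower in the 2 panels with the evolved MDS3 allele.

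The evolved MKT1 allele can be compared in 2 backgrounds, with and without the evolved MDS3 allele. In the MDS3e background, MDS3e MKT1e had COQ1, COQ2, COQ3 and COQ7 higher than MDS3e and none lower, with 11% of all genes higher and 6.24% lower. COQ7 differed by 0.23 ± 0.06 (limma, adjusted p = 0.030) and COQ3 by 0.19 ± 0.06 (limma, adjusted p = 0.039). After median centring COQ7 differed by 0.20 (adjusted p = 0.066) and COQ3 by 0.17 (adjusted p = 0.087), and neither was then called. Without MDS3e 1 or without MDS3e MKT1e 1 only 1 of the 4 members, COQ1, was still called, and without MDS3e 2 only COQ1 and COQ2. In the omission of MDS3e MKT1e 1, COQ2 differed by 0.29 (adjusted p = 0.081), COQ7 by 0.17 (adjusted p = 0.20) and COQ3 by 0.16 (adjusted p = 0.20). The COQ3 call was lost in 6 of the 10 omissions.

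The interaction term, which tests whether the MKT1e difference depends on the MDS3 allele, called none of the 10 members with limma, and none had an unadjusted p under 0.05. Over all genes 0.385% were called, or 21 genes. For COQ1 the interaction was -0.01, with an interval of -0.21 to 0.18. For COQ2 it was -0.22, with an interval of -0.44 to 0.01, so the COQ2 difference was smaller in the MDS3e background by an amount that did not pass the test.

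**Figure D3:**
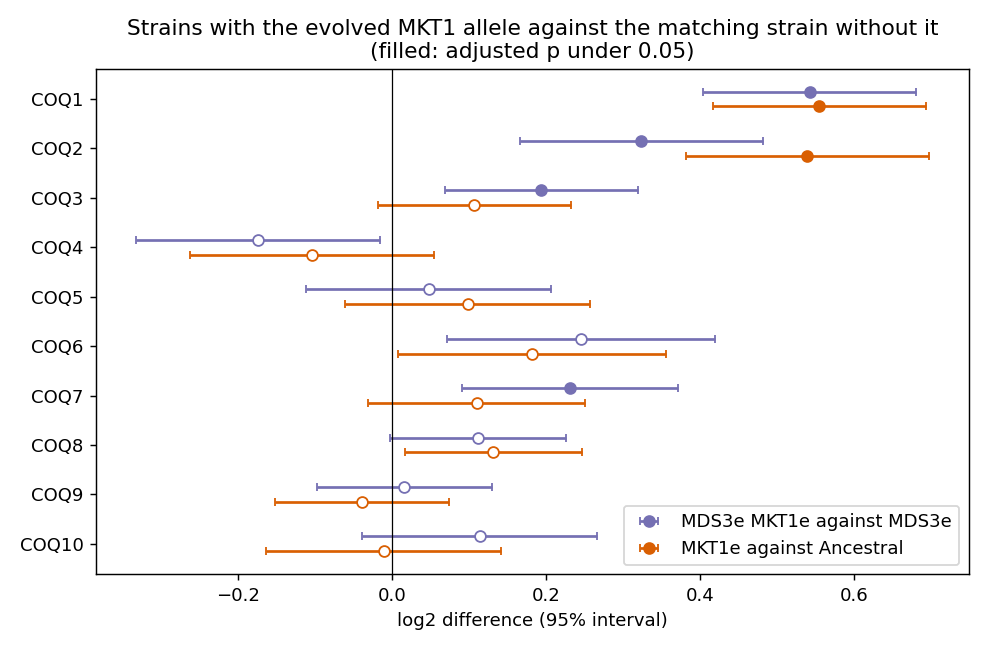
Log2 difference of each COQ gene in MDS3e MKT1e over MDS3e and in MKT1e over Ancestral. Each gene has a row with 1 point per comparison, the x axis is the log2 difference, bars are 95% intervals from limma, and filled points were called. COQ1 and COQ2 are called in both comparisons, and both COQ4 points lie below 0 without being called.

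Against MKT1e, MDS3e MKT1e had COQ4 and COQ1 lower and no member higher, where 11.5% of all genes were lower and 15% higher. COQ1 differed by -0.20 ± 0.06 (limma, adjusted p = 0.038), and this COQ1 call was lost in 8 of the 10 omissions of 1 array, with an adjusted p of up to 0.21 and a difference of -0.16 without MKT1e 2. Neither COQ1 nor COQ4 was called without MKT1e 2. PMA1e MKT1e against MKT1e called no member with limma, and 1, COQ3, had an unadjusted p under 0.05 (difference 0.15, interval 0.03 to 0.28). Over all genes 0.0184% were called, a single gene, BAT1. The 10 members' differences in that comparison ran between -0.03 and 0.15.

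PMA1e MKT1e against MDS3e MKT1e, which share the evolved MKT1 allele, called COQ4, COQ1 and COQ3 higher and none lower, with 15.3% of all genes higher and 16.1% lower. COQ1 differed by 0.22 ± 0.06 (limma, adjusted p = 0.023) and COQ3 by 0.20 ± 0.06 (limma, adjusted p = 0.021). Each of the 4 arrays compared, when omitted, ended the COQ1 call (adjusted p between 0.052 and 0.12), and the COQ3 call ended without PMA1e MKT1e 1, PMA1e MKT1e 2 or MDS3e MKT1e 2 (adjusted p between 0.079 and 0.12). COQ6, COQ7 and COQ5 differed by 0.22, 0.18 and 0.19 and were not called (limma, adjusted p 0.051, 0.053 and 0.071). After median centring 5 members were called, and 1 was without PMA1e MKT1e 1, PMA1e MKT1e 2 or MDS3e MKT1e 2.

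In the profile of the 5 genotype means, each centred on the gene's own mean, COQ3 and COQ7 were the closest pair of members, at a root mean square distance of 0.021. COQ1 and COQ2 were 0.11 apart, and COQ1 and COQ4 were the farthest pair, at 0.32. No member's closest gene was another COQ gene. The nearest member ranked between 4 (COQ7, as seen from COQ3) and 718 (COQ5, as seen from COQ4) among the 5448 other genes. COQ1 was closest to SDH2, a subunit of succinate dehydrogenase, at 0.019, and COQ2 to COX13, a subunit of cytochrome oxidase, at 0.028. These 2 genes were chosen after their values were seen. The 6 genes nearest to the members' median profile were MHP1, RTK1, PTK2, FLO9, QDR1 and TRR2, at distances of 0.019 to 0.027. The measure has 5 points per gene, and flat genes lie near many others.

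Of 10 genes that supply precursors or act with the COQ proteins, 2 were higher and 2 lower in MKT1e against Ancestral, with a median of 0.09. The lower count was 0 without MKT1e 2 and the higher count was 1 without, for example, PMA1e MKT1e 1. COQ11 and OCT1, a mitochondrial peptidase gene, differed by -0.23 and 0.23, and each of these calls was lost in 7 of the 10 omissions of 1 array (adjusted p of up to 0.13 for COQ11 and 0.17 for OCT1). YAH1, the mitochondrial ferredoxin that passes electrons to Coq6, had levels of 8.98 and 9.00 in MKT1e, 8.52 and 8.60 in MDS3e, 9.19 and 9.08 in MDS3e MKT1e, 8.98 and 8.97 in PMA1e MKT1e, and 8.31 and 8.51 in Ancestral. All 6 arrays with the evolved MKT1 allele were above the others, as for COQ1 and COQ2, and this separation was likewise not counted over all genes. YAH1 rose by 0.58 ± 0.07 in MKT1e (limma, adjusted p = 0.00026), 0.72 ± 0.07 in MDS3e MKT1e and 0.57 ± 0.07 in PMA1e MKT1e against Ancestral, and by 0.58 ± 0.07 in MDS3e MKT1e against MDS3e, and each call was kept in every alternative.

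Another protein of the synthesis complex is encoded by COQ11, which moved the other way in MDS3e MKT1e. COQ11 had levels of 7.47 and 7.50 in MKT1e, 7.59 and 7.62 in MDS3e, 7.47 and 7.31 in MDS3e MKT1e, 7.69 and 7.61 in PMA1e MKT1e, and 7.67 and 7.76 in Ancestral. It fell by 0.32 ± 0.07 in MDS3e MKT1e against Ancestral (limma, adjusted p = 0.0036), which every alternative kept. PUF3, whose protein binds mRNAs of mitochondrial proteins, fell by 0.39 ± 0.10 in MKT1e against Ancestral (limma, adjusted p = 0.018). That PUF3 call was lost without Ancestral 1, where the difference was -0.25 (adjusted p = 0.11), and without MKT1e 2, where it was -0.32 (adjusted p = 0.12). ARO9, an aromatic aminotransferase, rose by 0.85 ± 0.09 in MDS3e (limma, adjusted p = 0.00018) and by 1.29 ± 0.09 in MDS3e MKT1e (limma, adjusted p = 3.7e-06) against Ancestral. ARO9 was dim, with Ancestral intensities of 15.14 and 12.94, below the 16 added to each intensity. Under the alternatives other than omission of an array, its difference ran between 0.39 and 1.38 in MDS3e. In MDS3e MKT1e it ran between 0.64 and 1.96. Among the 10 genes, 5 were higher in PMA1e MKT1e than in Ancestral, a count that was 1 without PMA1e MKT1e 2. Median centring gave 2 higher and 1 lower there.

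The 10 genes of isoprenoid supply, from acetyl-CoA to the prenyl diphosphates, had 1 higher and 1 lower in MKT1e against Ancestral, with a median of 0.03. HMG1 and HMG2, both isozymes of HMG-CoA reductase, differed in opposite directions. HMG1 rose by 0.28 ± 0.07 (limma, adjusted p = 0.016) and HMG2 fell by 0.24 ± 0.05 (limma, adjusted p = 0.0074). Both calls were lost when only the compared genotypes were fitted (limma, adjusted p 0.0504 for HMG1 and 0.059 for HMG2). The HMG1 call was lost without Ancestral 1, at 0.25 (adjusted p = 0.077), and without MKT1e 1, at 0.23 (adjusted p = 0.10). In MDS3e against Ancestral 2 of the 10 were higher and 1 lower, and median centring left none higher and 1 lower. HMG2 fell by 0.34 ± 0.05 there (limma, adjusted p = 0.0016) and by 0.40 ± 0.05 in MDS3e MKT1e (limma, adjusted p = 0.00019). In MDS3e MKT1e against Ancestral 4 of the 10 were higher and 1 lower, and median centring gave 1 higher and 2 lower. The largest change was that of BTS1, which rose by 0.52 (limma, adjusted p = 0.0052). With 1 array omitted the BTS1 difference ran between 0.40 and 0.65, and under the other alternatives between 0.29 and 0.71.

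Among 10 mitochondrial dehydrogenase genes, most of which reduce ubiquinone, 7 were higher and 1 lower in MKT1e against Ancestral. Their median was 0.29, and fewer were called higher without MKT1e 2. The lower one was PUT1, proline dehydrogenase, at -0.21 (limma, adjusted p = 0.035), a call lost in 7 of the 10 omissions of 1 array, with -0.16 without MKT1e 1 (adjusted p = 0.19). NDE1 and NDI1, the external and internal NADH dehydrogenases, rose by 0.93 and 0.78. The succinate dehydrogenase genes SDH2 and SDH1 rose by 0.56 ± 0.06 (limma, adjusted p = 0.00012) and 0.44 ± 0.08 (limma, adjusted p = 0.0038). PMA1e MKT1e had 8 of the 10 higher than Ancestral, with a median of 0.40, and 5 without PMA1e MKT1e 2. In MDS3e against Ancestral 2 were higher and 2 lower, with a median of -0.17, and 1 was lower when any 1 array was omitted. There NDE2, the other external NADH dehydrogenase, fell by 0.73 ± 0.06 (limma, adjusted p = 2.9e-05). NDE2 was dim, with MDS3e intensities of 13.95 and 15.28. Under the alternatives other than omission of an array, its difference ran between -1.19 and -0.33. The 2 higher genes in MDS3e were PUT1, by 0.52 ± 0.06 (limma, adjusted p = 0.00045), and NDE1, by 0.30 ± 0.05 (limma, adjusted p = 0.0030).

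Complex III takes electrons from reduced ubiquinone, and 6 of 9 nuclear genes for its subunits were higher in MKT1e than in Ancestral, with none lower and a median of 0.32. CYT1, encoding cytochrome c1, rose by 0.66. RIP1, the iron-sulfur subunit, rose by 0.64 ± 0.06 (limma, adjusted p = 4.3e-05), and QCR6 and COR1 rose by 0.44 and 0.38. In MDS3e against Ancestral no gene of the 9 was higher and 3 were lower, with a median of -0.12. QCR7 fell by 0.42 ± 0.08 (limma, adjusted p = 0.0063). No gene of the 9 was called lower without MDS3e 1, where QCR7 differed by -0.34 (adjusted p = 0.060). In MDS3e MKT1e against MDS3e, 5 of the 9 were higher and none lower.

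The HAP genes encode activators of respiratory genes, and 2 of 5 were higher in MKT1e than in Ancestral, with a median of 0.15. HAP2, a DNA-binding subunit, rose by 0.40 ± 0.08 (limma, adjusted p = 0.0054). HAP5 rose by 0.32 ± 0.07 (limma, adjusted p = 0.0093), a call lost without Ancestral 1, at 0.23 (adjusted p = 0.060), and without MKT1e 2, at 0.32 (adjusted p = 0.051), so 1 of the 5 was then called. HAP2 rose by 0.47 in PMA1e MKT1e against Ancestral, and 3 of the 5 were higher in that comparison, against 1 without PMA1e MKT1e 2, and with 1 lower after median centring. In MDS3e MKT1e against Ancestral 2 of the 5 HAP genes were higher and 1 lower. The lower one was HAP1, at -0.28 (limma, adjusted p = 0.0035). MDS3e against Ancestral had 1 higher, HAP3 at 0.20, and 1 lower, HAP1 at -0.21 (limma, adjusted p 0.038 and 0.025). Some alternatives lost these calls in MDS3e. Median centring left none higher and 1 lower in each of these comparisons. The counts over these lists stand beside the shares of all genes given above, and whether the COQ genes follow any of the other lists was not tested.

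**Figure D4:**
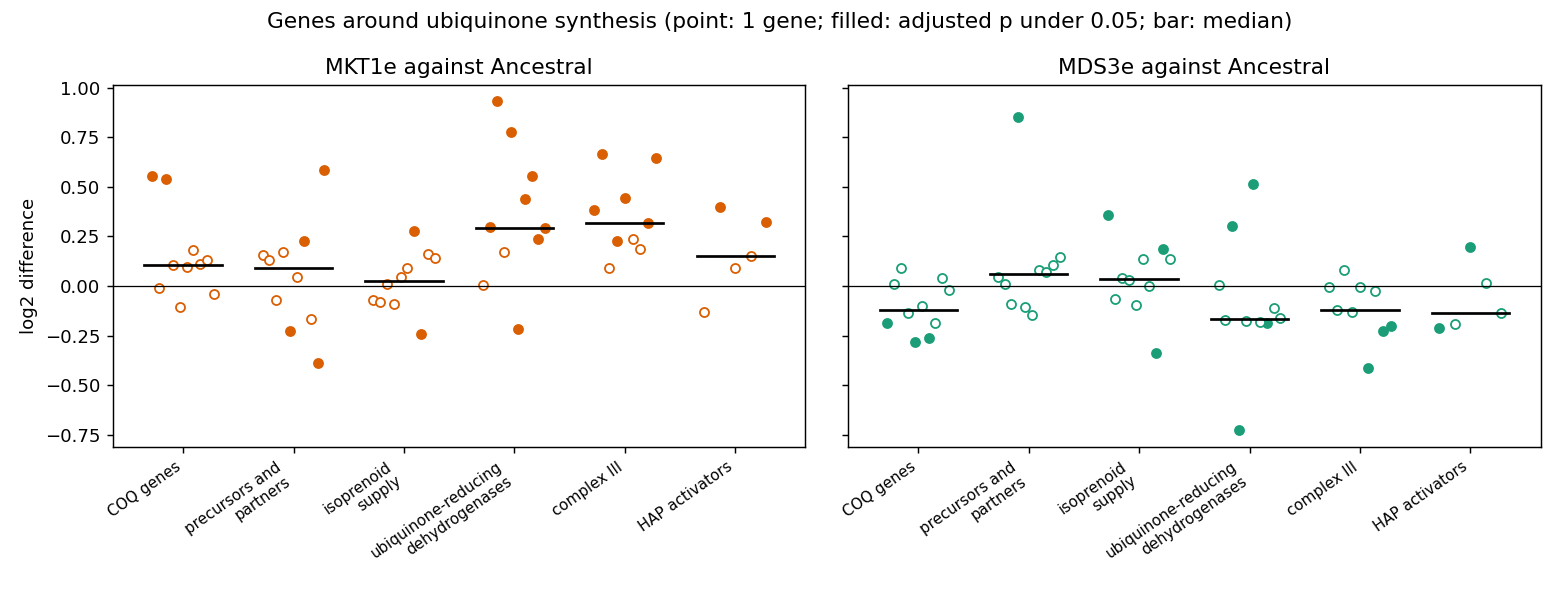
Log2 differences (y axis) in MKT1e against Ancestral and in MDS3e against Ancestral for the COQ genes and 5 lists of related genes. Each point is a gene, filled where it was called, and the bar is the median of its list. In MKT1e the medians of the dehydrogenases (0.29) and of complex III (0.32) are above that of the COQ genes (0.11), and in MDS3e the medians of these 3 groups lie between -0.17 and -0.12.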

How the data were processed

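RNA of 10 cultures was hybridised to Affymetrix arrays. The deposited values are linear intensities that the authors made with Affymetrix Expression Console, per the submitters' processing notes; the version, summary method and any rescaling by that program were not found in the labels. Of 10928 probe sets, 5498 named 1 S. cerevisiae gene, and the brightest probe set stood for each of 47 genes with several, which left 5449 genes. The log2 of intensity plus 16 was fitted with limma 3.58.1 in R 4.3.3, with 1 mean per genotype over all 10 arrays, two-sided moderated tests and Benjamini-Hochberg adjustment over all genes. The scripts were tested on simulated data. With 2 arrays per genotype, the number of arrays limits the precision: the median SE of a difference was 0.067.

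All 10 members are named, and of each list up to 4 genes that passed a comparison, largest first, with preference in the text for those kept in every alternative. Members and lists were chosen with earlier results of these data known. Alternatives (pseudocount, scaling, filter, variance trend, arrays fitted, threshold, replicate block, omission of each array) are given in the closing section. Gene order came from the R64 annotation.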

Additional observations from a re-analysis of the deposited data

How the results depend on the processing

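Of 90 pairs of COQ gene and comparison, 22 were called, 9 of them under every alternative, and 13 were lost at least once; 7 uncalled pairs were called at least once and no called pair changed sign. Leaving out 1 array at a time gave 2 to 2 called members in MKT1e against Ancestral (2 with all arrays), 0 to 3 in MDS3e against Ancestral (3), 3 to 3 in MDS3e MKT1e against Ancestral (4), 2 to 4 in PMA1e MKT1e against Ancestral (4), 1 to 5 in MDS3e MKT1e against MDS3e (4), 0 to 2 in MDS3e MKT1e against MKT1e (2), 1 to 5 in PMA1e MKT1e against MDS3e MKT1e (3) and 6 to 7 in the F-test (6). PMA1e MKT1e against MKT1e and the interaction stayed at 0. With a pseudocount of 1, MDS3e against Ancestral and MDS3e MKT1e against MKT1e each had 1 called member. With a pseudocount of 64, PMA1e MKT1e against MDS3e MKT1e had 5. Median centring and quantile normalization each gave 5 in MDS3e against Ancestral, 2 in MDS3e MKT1e against MDS3e and 5 in PMA1e MKT1e against MDS3e MKT1e. Against Ancestral, median centring also gave 2 higher and 1 lower in MDS3e MKT1e and 3 higher in PMA1e MKT1e. It gave 3 lower in MDS3e MKT1e against MKT1e. Smaller shifts under some other settings are not listed. Fitting only the compared genotypes gave 1 in MDS3e MKT1e against MKT1e and 5 in PMA1e MKT1e against MDS3e MKT1e. At adjusted p under 0.01 the counts were 0 in MDS3e against Ancestral and 1 each in MDS3e MKT1e against MDS3e, MDS3e MKT1e against MKT1e and PMA1e MKT1e against MDS3e MKT1e. The cause of these shifts was not tested. Arrays with the same replicate number had mixed correlations of their deviations: 0.19 to 0.39 in the 3 pairs among MKT1e, MDS3e and Ancestral, and -0.20 to 0.03 in the other pairs of genotypes. Not every pair was above 0.1, so the tests reported have no block. With the replicate block the counts were 2 for MKT1e and also 2 for MDS3e against Ancestral, 3 for MDS3e MKT1e and 4 for PMA1e MKT1e against Ancestral, 3 in MDS3e MKT1e against MDS3e, 4 in PMA1e MKT1e against MDS3e MKT1e and 6 in the F-test. That block ended the calls of COQ1 in MDS3e against Ancestral (adjusted p = 0.052), COQ8 in MDS3e MKT1e against Ancestral (adjusted p = 0.052) and COQ3 in MDS3e MKT1e against MDS3e (adjusted p = 0.052), and added COQ6 in PMA1e MKT1e against MDS3e MKT1e (adjusted p = 0.049). All 10 members were above background on all arrays.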

Other observations

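The array also carries 10 probe sets for COQ genes of Schizosaccharomyces pombe, a yeast not in these samples. Their levels were at most 4.23 on any array, near the background limit of 4.15. They are among the 1746 probe sets from which that limit was set, so this is not an independent check.

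The nearest tested genes on either side of each COQ gene in the R64 gene order gave 20 neighbours. In MKT1e against Ancestral 2 of them were higher and 2 lower, with a median of -0.01, where 11.8% of all genes were higher and 8.48% lower. Beside COQ1, RER2 differed by 0.04 and GPI18 by -0.12, and beside COQ2, ZRG17 differed by 0.15 and MVD1 by 0.14. None of these 4 was called by limma (adjusted p 0.67, 0.31, 0.084 and 0.41). MSS51, needed for translation of a cytochrome oxidase mRNA, lies beside the flat COQ9 and rose by 0.55 in MKT1e (limma, adjusted p = 0.00016). COQ6 was called lower in MDS3e, though that call depended on each of the 4 arrays compared. In MDS3e against Ancestral 3 of the 20 neighbours were higher and 2 lower, where 14.5% of all genes were higher and 10.7% lower. Beside COQ6, ENO1, an enolase, and GND2, an enzyme of the pentose phosphate pathway, differed from Ancestral by -0.39 and -1.04 in MDS3e (limma, adjusted p 0.0071 and 7.7e-05). In MDS3e MKT1e against Ancestral 3 of the 20 neighbours were higher and 4 lower, where 21.9% of all genes were higher and 16.7% lower. Beside COQ4, which fell in MDS3e MKT1e, RAV2 differed from Ancestral by -0.21 and MSC2 by 0.13 in MDS3e MKT1e (limma, adjusted p 0.019 and 0.23). These neighbours were named after their values were seen.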
